A study of Mus musculus with 15 samples.

Results

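The 10 genes described here encode feeding and neuroendocrine peptides of hypothalamic nuclei that lie next to the suprachiasmatic nuclei (SCN): Agrp, Npy, Pomc, Cartpt, Ghrh, Hcrt, Pmch, Crh, Trh and Oxt. They were taken by gene symbol from a table of 24419 genes, as peptides that a tissue punch of the SCN may include. All 10 passed the filter on low counts, as did 16910 genes in all.

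RNA was sequenced from SCN punches of C57BL/6 mice aged 8 to 12 weeks, with 2 to 4 punches pooled per library. The mice were double knockouts for REV-ERB alpha and REV-ERB beta (DKO) or controls, and tissue was taken at circadian time (CT) 16 h or 4 h, in the subjective night or day. There were 4 DKO and 5 control libraries at CT16, and 3 DKO and 3 control libraries at CT4. The labels name no alleles and no Cre driver for the DKO, give no treatment, and do not say which mice went into a pool; a p-value here speaks of the spread from pool to pool, which may be technical.

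REV-ERB alpha and beta, encoded by Nr1d1 and Nr1d2, are nuclear receptors that repress transcription within the circadian clock. The peptide neurons around the SCN fall into groups by place and role. In the arcuate nucleus, neurons that make agouti-related peptide and neuropeptide Y promote feeding, and neurons that make pro-opiomelanocortin and the CART peptide restrain it. Neurons of the lateral hypothalamus make hypocretin (orexin), which sustains wakefulness, or melanin-concentrating hormone, and neurons of the paraventricular nucleus make corticotropin-releasing hormone, thyrotropin-releasing hormone and oxytocin. Prepropeptide messages of this kind are very abundant in a small number of cells, and the SCN itself makes others, such as Vip and Avp.

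Total counts ran from 32580803 to 68757624 per library. Every library held messages of SCN neurons. Lhx1, a transcription factor of the developing and adult SCN, ran from 9.48 to 63.8 CPM (a gene's reads relative to all reads of its library, with TMM-scaled library sizes), Vip from 19.1 to 145 CPM and Avp from 72.3 to 681 CPM. Avp did not follow Vip and Lhx1 across the groups. Its highest group mean was in DKO CT4 (468 CPM), where Vip (24.9 CPM) and Lhx1 (16.1 CPM) had their lowest. The counts did not check the genotype: Nr1d1 averaged 319 ± 62.5 CPM in DKO (SD, n = 4) and 144 ± 5.50 CPM in control (n = 5) at CT16, and 240.0 ± 12.98 CPM in DKO and 243 ± 42.2 CPM in control at CT4 (n = 3 each). Nr1d2 averaged 233 ± 25.8 CPM in DKO and 111 ± 8.43 CPM in control at CT16, and 170.0 ± 9.28 CPM in DKO and 123 ± 7.03 CPM in control at CT4. In DKO CT16 replicate 4, 10 myelin genes summed to 19851 CPM, against 2930 to 9656 CPM in the other libraries. DKO CT16 replicate 3 and control CT4 replicate 1 were lowest of their groups in the sum of 10 SCN identity markers (379 and 449 CPM). In the sum of 12 SCN peptide genes, which includes Avp and genes also listed for neighbouring nuclei, they were highest of their groups (837 and 1084 CPM). The values without these 3 libraries are given where they change a call. Control CT16 replicate 5, also lowest of its group in the identity sum (405 CPM), was kept in that setting. In bulk punches, fewer cells of a type and less RNA per cell cannot be told apart.

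Per length, in TPM, the length-corrected share scaled to the same sum, computed from the deposited exonic lengths, Oxt was the most abundant of the 10, with a mean of 1075 TPM over the 15 libraries (353 to 2347) and rank 68 among all genes tested. Trh followed with 503 TPM (261 to 789). Pomc averaged 140 TPM (5.16 to 379), Cartpt 110 TPM (29.4 to 249) and Npy 104 TPM (9.45 to 332). Below these lay Hcrt at 72.3 TPM (2.04 to 198), Pmch at 55.8 TPM (0.951 to 375, with a median of 2.37), Ghrh at 20.8 TPM, Agrp at 20.3 TPM and Crh at 4.09 TPM (0.133 to 11.4). The top of this order held in most libraries: Oxt lay above Trh in 14 of 15, and Trh above Pomc in 14. Further down, the order changed more often between libraries: Pomc exceeded Cartpt in 7 of 15, Cartpt exceeded Npy in 10, Npy exceeded Hcrt in 9, Ghrh exceeded Agrp in 9 and Agrp exceeded Crh in 11. Hcrt exceeded Pmch in 13 of 15 libraries, and Pmch stood above Ghrh in the mean but in just 2 of 15.

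**Figure D1:**
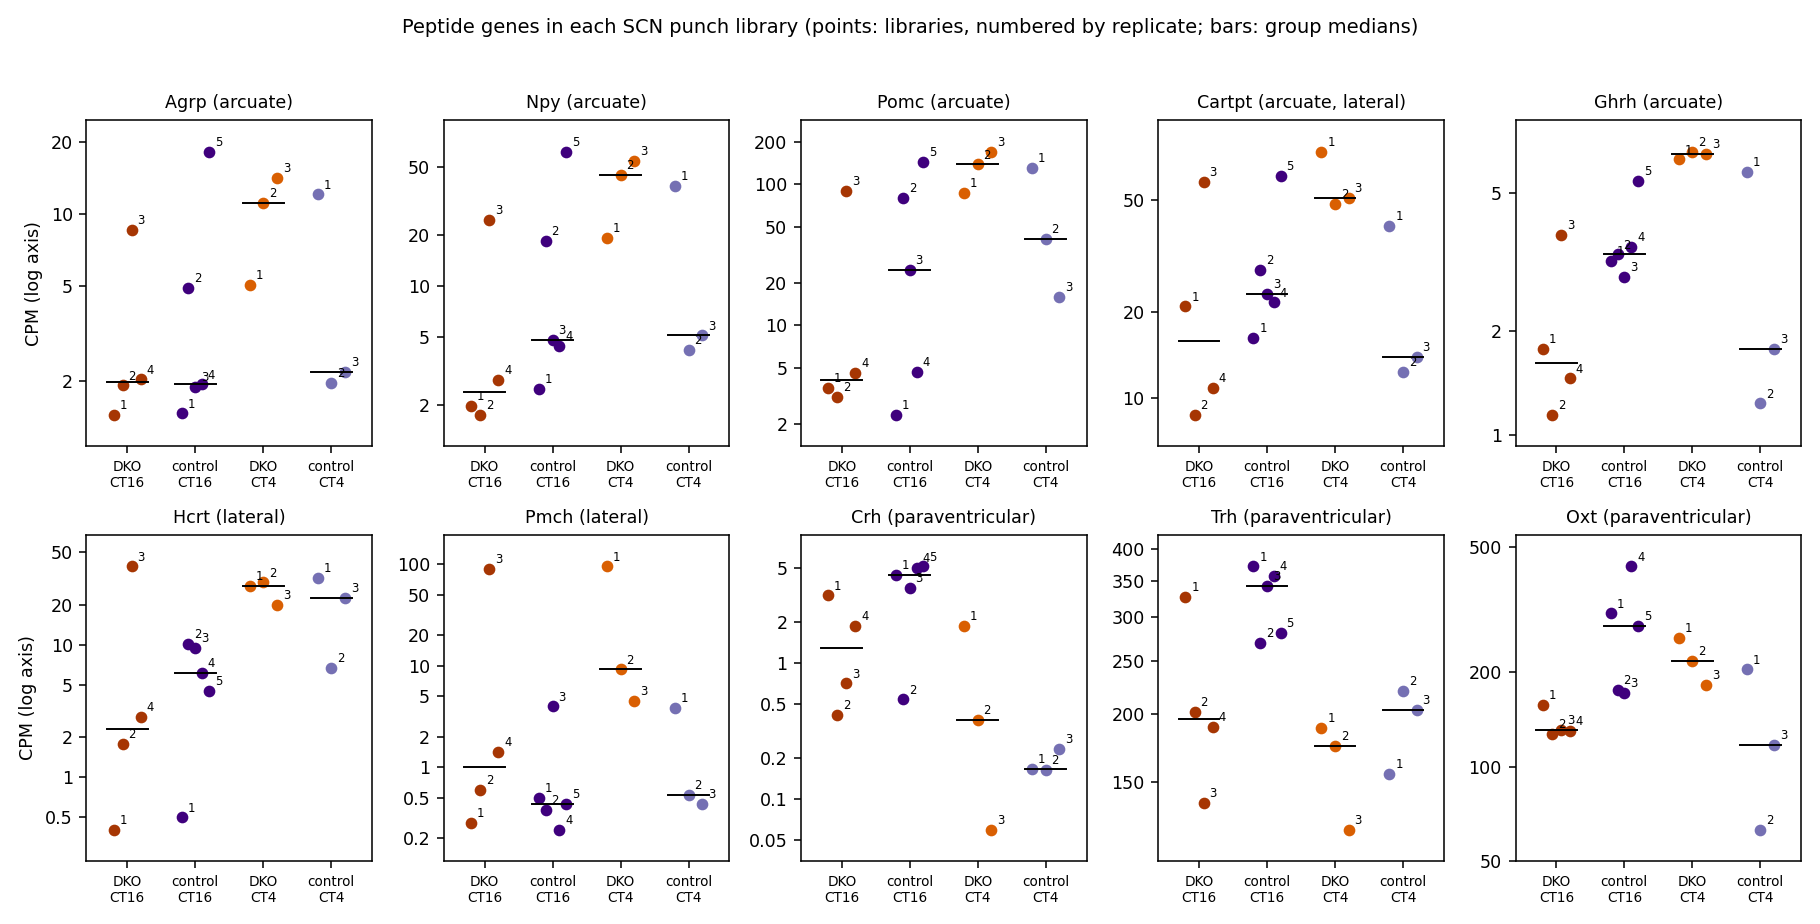
CPM of the 10 peptide genes on log axes, with 1 panel per gene and 1 point per library, numbered by replicate, in the order DKO CT16, control CT16, DKO CT4 and control CT4; bars are group medians. In the panels of Agrp, Npy and Pomc, DKO CT16 replicate 3, control CT16 replicate 5 and control CT4 replicate 1 lie apart from most libraries of their own groups.

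The arcuate feeding peptides separated libraries more than groups. Agrp (chr8:105566695-105579845, minus strand, mm10, as for all gene positions here) encodes an antagonist of melanocortin receptors. It had 1.44, 1.91, 8.55 and 2.02 CPM in DKO and 1.46, 4.91, 1.89, 1.93 and 18.3 CPM in control at CT16. At CT4 it had 5.05, 11.1 and 14.1 CPM in DKO and 12.1, 1.95 and 2.18 CPM in control. The groups overlapped in every comparison.

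Npy (chr6:49822729-49829505, plus strand), whose peptide stimulates feeding and is made in the same arcuate neurons, followed Agrp library by library. It had 1.96, 1.74, 24.4 and 2.79 CPM in DKO and 2.48, 18.4, 4.80, 4.41 and 61.5 CPM in control at CT16. In the CT4 libraries it had 19.0, 44.8 and 54.5 CPM in DKO and 38.6, 4.19 and 5.11 CPM in control. For both genes the highest control library at CT16 exceeded all 4 DKO libraries, and 2 of the 3 control libraries at CT4 lay below all 3 DKO libraries.

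Pomc (chr12:3954945-3960643, plus strand) encodes the precursor of the appetite-suppressing melanocortins. At CT16 it had 3.62, 3.11, 90.1 and 4.59 CPM in DKO and 2.33, 80.1, 24.6, 4.70 and 144 CPM in control. Its CT4 levels were 86.9, 138 and 170.5 CPM in DKO and 130.0, 40.9 and 15.9 CPM in control. Within 1 group, control CT16, the highest library held 61.9 times the lowest. Pomc is also a gene of the pituitary. Of 6 pituitary genes listed, 4 passed the filter. The summed level of all 6 was 0.765 to 2.30 CPM in DKO and 0.703 to 38.6 CPM in control at CT16. At CT4 it was 0.658 to 1.16 CPM in DKO and 0.872 to 64.6 CPM in control. Gh, growth hormone, reached 56.3 CPM in control CT4 replicate 2, 18.0 CPM in control CT16 replicate 2 and 7.38 CPM in control CT16 replicate 1, which had the lowest Pomc level of all. The part of pituitary tissue in the Pomc values was not tested.

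Cartpt (chr13:99898483-99900683, minus strand) encodes the CART peptides, which reduce feeding, and is expressed in the arcuate nucleus and in other hypothalamic areas. It had 21.0, 8.69, 57.7 and 10.8 CPM in DKO and 16.3, 28.2, 23.2, 21.7 and 60.6 CPM in control at CT16. The CT4 libraries held 74.1, 48.5 and 50.8 CPM in DKO and 40.6, 12.3 and 14.0 CPM in control. All 3 DKO libraries thus lay above all 3 control libraries at CT4, where the groups of 25.4% of all genes did not overlap in either direction, while the groups overlapped at CT16.

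Ghrh (chr2:157329496-157346655, minus strand) encodes growth hormone-releasing hormone. It varied least of the arcuate genes within groups, with an SD of 0.66 on the log2 CPM scale. It had 1.77, 1.14, 3.78 and 1.46 CPM in DKO and 3.20, 3.33, 2.87, 3.50 and 5.45 CPM in control at CT16. At CT4 it had 6.27, 6.61 and 6.52 CPM in DKO and 5.77, 1.23 and 1.77 CPM in control. The DKO libraries did not overlap the control libraries at CT4, nor the DKO libraries of CT16 (14.7% of all genes did not overlap between these), and DKO CT4 was the narrowest of the 4 groups, at 6.47 ± 0.174 CPM (SD, n = 3).

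None of the 5 arcuate genes passed the edgeR quasi-likelihood test with Benjamini-Hochberg adjustment over 16910 genes in any comparison; of all genes, 4.66% passed between genotypes at CT16 and 1.28% at CT4, 1.8% over time in DKO and 4.21% over time in control. At CT4 the log2 fold changes of DKO over control were 0.89 ± 1.09 for Agrp, 1.29 ± 1.38 for Npy, 1.08 ± 1.54 for Pomc, 1.37 ± 0.74 for Cartpt and 1.13 ± 0.51 for Ghrh (± SE, edgeR adjusted p from 0.324 to 0.805). At CT16 they were -0.70 ± 0.91, -1.22 ± 1.17, -0.998 ± 1.29, -0.28 ± 0.60 and -0.83 ± 0.43, in the same order of genes (edgeR adjusted p from 0.304 to 0.836). For CT16 over CT4 the estimates in DKO were -1.51 ± 1.01 for Agrp, -2.32 ± 1.29 for Npy, -2.36 ± 1.45 for Pomc, -1.22 ± 0.68 for Cartpt and -1.65 ± 0.48 for Ghrh, the last with an edgeR adjusted p of 0.0939. In control they were 0.07 ± 0.98, 0.20 ± 1.23, -0.28 ± 1.36, 0.43 ± 0.67 and 0.32 ± 0.46 (edgeR adjusted p from 0.750 to 0.977). The 95% interval for Npy at CT4 reached from -1.73 to 4.32, so a several-fold difference in either direction lay within it.

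These estimates moved with single libraries. Without control CT16 replicate 5, the difference at CT16 became 0.45 for Agrp, 0.04 for Npy and 0.14 for Cartpt, which turned their sign, while without DKO CT16 replicate 3 it became -1.68 for Agrp, -3.11 for Npy, -3.78 for Pomc and -1.15 for Cartpt. Without control CT4 replicate 1, the difference at CT4 became 2.29 for Agrp, 3.09 for Npy, 2.21 for Pomc and 2.14 for Cartpt. Over time in control, Agrp lay between -1.08 without control CT16 replicate 5 and 1.47 without control CT4 replicate 1, and Npy between -1.07 and 1.99 without the same libraries. None of these 4 genes passed by edgeR with any 1 library left out.

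Ghrh passed in some of these settings. Without control CT4 replicate 1, its log2 fold change of DKO over control at CT4 was 2.12 ± 0.44 (edgeR adjusted p = 0.0329), and that of CT16 over CT4 in DKO passed as well at -1.65 (edgeR adjusted p = 0.0224). Without DKO CT16 replicate 3, the change over time in DKO was -2.14 (edgeR adjusted p = 0.0132). Without control CT4 replicate 1 and DKO CT16 replicates 3 and 4 together, 3 libraries chosen with earlier results of these data known, Ghrh passed in all 5 comparisons. Of these, control CT4 replicate 1 (5.77 CPM) and DKO CT16 replicate 3 (3.78 CPM) were the highest of their groups in Ghrh. Leaving them out, together or singly as above, narrows those groups for this gene, so these calls are no independent support. Control CT16 replicate 5, the highest of its group at 5.45 CPM, was kept. DKO over control, Ghrh then had -1.33 ± 0.26 at CT16 and 2.12 ± 0.29 at CT4. CT16 over CT4 it had -2.14 ± 0.29 in DKO and 1.30 ± 0.27 in control, and the interaction was -3.44 ± 0.39 (edgeR adjusted p from 0.00052 to 0.0168). Markers of the neighbouring tissue also differed between libraries. The summed level of 16 other arcuate markers, such as Kiss1, Tbx3 and Prlr, was 160 to 291 CPM in DKO and 218 to 429 CPM in control at CT16, and 283 to 306 CPM in DKO and 164 to 278 CPM in control at CT4. It was highest within control CT16 in replicate 5 (429 CPM) and within control CT4 in replicate 1 (278 CPM), but within DKO CT16 replicate 1 (291 CPM), the lowest in Agrp, lay above replicate 3 (267 CPM), and within control CT16 replicate 2, second in Agrp, Npy and Pomc, was the lowest (218 CPM). The summed level of 12 ependymal and tanycyte markers was 295 CPM in DKO CT16 replicate 3 and 160 to 202 CPM in the other 3 of its group, and 334 CPM in control CT16 replicate 5 and 159 to 191 CPM in the other 4. At CT4 that sum was 243 to 299 CPM in DKO and 163 to 235 CPM in control, highest of the control libraries in replicate 1. The sum of 8 ventromedial and dorsomedial markers was 268 CPM in DKO CT16 replicate 3 and 110 to 152 CPM in the other 3, and 146 to 182 CPM in control at CT16. At CT4 it was 221 CPM or more in each DKO library and 139 to 210 CPM in control. The summed level of 10 SCN identity markers was 379 to 774 CPM in DKO and 405 to 699 CPM in control at CT16, and 383 to 385 CPM in DKO and 449 to 938 CPM in control at CT4. The SCN sum was lowest within their groups in DKO CT16 replicate 3 (379 CPM), control CT16 replicate 5 (405 CPM) and control CT4 replicate 1 (449 CPM), which were the libraries highest in Agrp and Npy within those groups. The part of SCN, arcuate, ventricular and ventromedial tissue content in these values was not tested.

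The promoters of the peptide genes were read for AGGTCA, the core hexamer that REV-ERB and ROR receptors bind. Windows of 300 bases, from 250 before to 50 after a RefSeq start on GRCm38.p6, were found for 8 of the 10 genes, as 9 windows since Ghrh has a pair of starts. AGGTCA, on either strand, stood in 5 of the 9 windows and in 4 of the 8 genes, and in 16.26% of all 32851 windows. Extended by an upstream T (TAGGTCA, either strand), it stood in 0 of the 9, against 2.606% of all. The windows of Npy, Cartpt, Hcrt and Pmch held no AGGTCA. The E-box CACGTG stood in 0 of the 9 windows, against 7.15% of all. These matches are descriptions of letters and not of binding. The windows that hold AGGTCA are shown 5′ to 3′ on the strand of the gene, with each match in capitals (TGACCT is AGGTCA on the other strand); the matches begin 62 bases before the start in Pomc, and 179 and 84 bases before their starts in the windows of Ghrh.
Pomc, chr12:3954695-3954994, plus strand: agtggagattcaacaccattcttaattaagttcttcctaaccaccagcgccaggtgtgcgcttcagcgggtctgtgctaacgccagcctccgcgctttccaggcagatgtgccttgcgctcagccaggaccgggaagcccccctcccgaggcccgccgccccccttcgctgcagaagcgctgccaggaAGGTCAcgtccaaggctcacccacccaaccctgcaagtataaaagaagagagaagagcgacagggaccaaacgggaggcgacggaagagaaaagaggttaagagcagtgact
Ghrh, upstream start, chr2:157346606-157346905, minus strand: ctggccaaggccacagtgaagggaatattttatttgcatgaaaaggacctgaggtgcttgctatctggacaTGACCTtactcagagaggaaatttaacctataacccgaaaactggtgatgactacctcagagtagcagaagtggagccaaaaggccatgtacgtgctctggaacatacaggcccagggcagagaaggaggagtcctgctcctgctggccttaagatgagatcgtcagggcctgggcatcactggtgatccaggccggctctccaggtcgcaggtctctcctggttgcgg
Ghrh, downstream start, chr2:157337377-157337676, minus strand: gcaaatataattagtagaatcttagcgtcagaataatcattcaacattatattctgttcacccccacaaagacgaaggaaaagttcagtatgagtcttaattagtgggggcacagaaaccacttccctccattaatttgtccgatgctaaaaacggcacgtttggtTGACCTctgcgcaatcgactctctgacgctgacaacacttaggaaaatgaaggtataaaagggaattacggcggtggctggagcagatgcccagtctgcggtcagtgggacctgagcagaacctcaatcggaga

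The lateral hypothalamic pair spanned the widest ranges of the 10, with a highest library at 391 times the lowest for Pmch and 97.6 times for Hcrt. Hcrt (chr11:100761693-100762931, minus strand), the hypocretin precursor, had 0.402, 1.80, 39.2 and 2.86 CPM in DKO and 0.496, 10.2, 9.55, 6.14 and 4.48 CPM in control at CT16. In the CT4 libraries it had 27.8, 29.7 and 20.1 CPM in DKO and 32.2, 6.70 and 22.5 CPM in control. Apart from DKO CT16 replicate 3, the highest library of all 15, the CT16 libraries lay at or under 10.2 CPM, and the genotypes overlapped at both times.

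Pmch (chr10:88091072-88092374, plus strand) encodes the precursor of melanin-concentrating hormone, which promotes feeding and sleep. Its exons share 434 bases with Parpbp on the opposite strand, and the strand setting of the counting is not given in the sources used here, so reads of the 2 genes may not be separated. It had 0.285, 0.599, 90.5 and 1.43 CPM in DKO and 0.496, 0.385, 3.99, 0.244 and 0.439 CPM in control at CT16. Its CT4 levels were 95.3, 9.24 and 4.56 CPM in DKO and 3.84, 0.534 and 0.435 CPM in control. Just 2 libraries, both DKO, exceeded 10 CPM, and the 3 DKO libraries at CT4 lay above the 3 control libraries.

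Neither gene passed the test. The log2 fold changes of Pmch for DKO over control were 4.42 ± 1.77 at CT16 (edgeR adjusted p = 0.191, 95% interval 0.55 to 8.30) and 4.46 ± 2.16 at CT4 (edgeR adjusted p = 0.372, -0.29 to 9.20). At CT16 the estimate took the opposite sign without DKO CT16 replicate 3, at -0.58, and it ranged from -1.32 to 5.93 over the alternative settings. At CT4 it was 2.07 without DKO CT4 replicate 1, the library of 95.3 CPM, and 6.20 without control CT4 replicate 1. Those of Hcrt were 0.84 ± 1.05 at CT16 (edgeR adjusted p = 0.698), which became -1.95 without DKO CT16 replicate 3, and 0.34 ± 1.25 at CT4 (edgeR adjusted p = 0.939), which became -0.081 without control CT4 replicate 2. Over time, CT16 against CT4, Hcrt had -1.20 ± 1.16 in DKO and -1.71 ± 1.12 in control, and Pmch had -0.64 ± 1.64 in DKO and -0.61 ± 2.12 in control (edgeR adjusted p from 0.433 to 0.905). Without DKO CT16 replicate 3, both passed in the DKO time comparison, at -3.99 for Hcrt (edgeR adjusted p = 0.0280) and -5.64 for Pmch (edgeR adjusted p = 0.0490), whereas without DKO CT4 replicate 1 Pmch had 1.76 there. DKO CT16 replicate 3 was the highest of its group in both genes. Leaving it out lowers and narrows that group, so these calls are no independent support. Of all genes, 1461 passed there without it, against 304 with all libraries. In control the Pmch estimate lay between -2.11 without control CT16 replicate 3 and 1.15 without control CT4 replicate 1. The summed level of 10 other lateral hypothalamic markers was 190 to 414 CPM in DKO and 268 to 445 CPM in control at CT16, and 383 to 433 CPM in DKO and 211 to 386 CPM in control at CT4. Their part in the Hcrt and Pmch values was not tested.

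Of the paraventricular peptides, Trh and Oxt were abundant in every library, and Crh, the scarcest of the 10, was the gene that passed a test. Crh (chr3:19693401-19695396, minus strand) encodes corticotropin-releasing hormone, which drives the pituitary-adrenal stress axis. At CT16 it had 3.13, 0.412, 0.708 and 1.88 CPM in DKO and 4.41, 0.539, 3.53, 4.98 and 5.12 CPM in control. The CT4 libraries held 1.88, 0.384 and 0.0596 CPM in DKO and 0.166, 0.164 and 0.232 CPM in control. In control mice all 5 libraries of CT16 thus lay above all 3 of CT4, each of which held 8 reads of Crh, against 28 to 245 reads at CT16; 15.8% of all genes showed no overlap between these groups.

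Crh averaged 3.72 ± 1.88 CPM in control at CT16 (SD, n = 5) and 0.188 ± 0.0386 CPM in control at CT4 (n = 3). The log2 fold change was 4.31 ± 1.11 (95% interval 1.90 to 6.72), about 19.8-fold, with an edgeR adjusted p of 0.0491 (4.21% of all genes passed, 2.13% as higher), and Crh was higher in 5 of 5 libraries. This was the single call among the 10 genes in any of the 5 comparisons. It lay close to the threshold: it was lost in 14 of 24 alternative settings, and over the 24 the estimate lay between 3.77 and 4.59 (edgeR, DESeq2 or limma adjusted p from 0.00029 to 0.182). Leaving out any of 10 of the 15 libraries ended the call (edgeR adjusted p from 0.0534 to 0.171), namely each of the 3 control CT4 libraries, control CT16 replicates 1, 3, 4 and 5, DKO CT16 replicates 3 and 4, and DKO CT4 replicate 2. Without control CT4 replicate 1 and DKO CT16 replicates 3 and 4 together, Crh had 4.23 (edgeR adjusted p = 0.182).

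In DKO, Crh averaged 1.53 ± 1.24 CPM at CT16 (SD, n = 4) and 0.774 ± 0.970 CPM at CT4 (n = 3), and the groups overlapped, with a log2 fold change of 0.95 ± 0.93 (edgeR adjusted p = 0.627). The difference between the genotypes in the change over time, tested as the interaction, was -3.36 ± 1.43 and did not pass (edgeR adjusted p = 0.297, 95% interval -6.48 to -0.25). Between genotypes, DKO over control, Crh had -1.28 ± 0.76 at CT16 (edgeR adjusted p = 0.373) and 2.09 ± 1.22 at CT4 (edgeR adjusted p = 0.471). Without DKO CT4 replicate 1, at 1.88 CPM the highest of its group, the CT4 difference was 0.29, the change over time in DKO 2.74 and the interaction -1.57. Without DKO CT16 replicate 1, the CT16 difference was -1.93, the change over time in DKO 0.29 and the interaction -4.02. The genes whose library deviations were most like those of Crh are given further on, led by Fosb. Lhx6, a transcription factor on the list of lateral hypothalamic markers, passed in the same comparison as Crh: its log2 fold change in control was 3.85 ± 0.96 (edgeR adjusted p = 0.0458), with 5.71, 1.62, 7.26, 11.7 and 8.69 CPM at CT16 and 0.498, 0.288 and 0.696 CPM at CT4. Like that of Crh, the call of Lhx6 was lost without any of 10 of the 15 libraries (edgeR adjusted p up to 0.171), namely control CT16 replicates 1, 3, 4 and 5 and each of the 6 libraries of CT4. Control CT16 replicate 2 was the lowest library of its group for both Crh and Lhx6. The part of lateral hypothalamic tissue in the Crh values was not tested.

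Trh (chr6:92242061-92244650, minus strand) encodes thyrotropin-releasing hormone, which sets the pituitary-thyroid axis. It was the steadiest of the 10, with a highest library 3.03 times the lowest. It had 327, 201, 137 and 189 CPM in DKO and 372, 269.8, 343, 357 and 281 CPM in control at CT16. At CT4 it had 188, 175 and 123 CPM in DKO and 155, 221 and 203 CPM in control. In control, all CT16 libraries lay above all CT4 libraries, with means of 325 ± 46.2 CPM at CT16 (SD, n = 5) and 193 ± 33.8 CPM at CT4 (n = 3), a log2 fold change of 0.75 ± 0.25 that did not pass (edgeR adjusted p = 0.122). In DKO it was 0.40 ± 0.26 (edgeR adjusted p = 0.443). DKO over control it was -0.60 ± 0.23 at CT16 (edgeR adjusted p = 0.169) and -0.25 ± 0.28 at CT4 (edgeR adjusted p = 0.733). DKO CT16 replicate 1 held the highest level of its group, and without it the CT16 difference passed at -0.89 (edgeR adjusted p = 0.0164), as did the change over time in control at 0.75 (edgeR adjusted p = 0.0415). Leaving out the highest library lowers and narrows that group, so the CT16 call is no independent support. Of all genes, 1318 passed at CT16 without it, against 788 with all libraries. The comparison over time in control holds no DKO library. Its estimate stayed at 0.75, and its SE fell from 0.25 to 0.19.

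Oxt (chr2:130576169-130577053, plus strand) encodes oxytocin, a hormone of magnocellular neurons of the paraventricular and supraoptic nuclei that acts in reproduction, social behaviour and feeding. At CT16 it had 157, 127, 131 and 129.9 CPM in DKO and 308, 176, 172, 435 and 281 CPM in control. In the CT4 libraries it had 257, 217 and 182 CPM in DKO and 204, 62.9 and 118 CPM in control. All 4 DKO libraries lay below all 5 control libraries at CT16, where 6.97% of all genes showed no overlap, and below all 3 DKO libraries of CT4, while at CT4 the genotypes overlapped.

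The log2 fold change of Oxt for DKO over control was -1.01 ± 0.34 at CT16 (edgeR adjusted p = 0.129, 95% interval -1.76 to -0.26), with means of 136 ± 14.2 CPM in DKO (SD, n = 4) and 274 ± 109 CPM in control (n = 5). At CT4 it was 0.77 ± 0.41 (edgeR adjusted p = 0.430), with means of 219 ± 37.2 CPM in DKO and 128 ± 71.1 CPM in control (SD, n = 3 each). Over time it was -0.68 ± 0.38 in DKO (edgeR adjusted p = 0.367) and 1.10 ± 0.38 in control (edgeR adjusted p = 0.136). The interaction, -1.78 ± 0.54, had the smallest unadjusted p of the 10 interactions at 0.00649 and did not pass (edgeR adjusted p = 0.177). The summed level of 8 other paraventricular and supraoptic markers, such as Sim1 and Otp, was 486 to 612 CPM in DKO and 541 to 618 CPM in control at CT16, and 590.0 to 639 CPM in DKO and 533 to 648 CPM in control at CT4. It was highest within DKO CT16 in replicate 3 (612 CPM) and within control CT4 in replicate 1 (648 CPM), each the lowest of its group in Trh. In Oxt, control CT4 replicate 1 was the highest of its group (204 CPM), and DKO CT16 replicate 3 was second in its group (131 CPM). Within DKO CT4, the marker sum was 639 CPM in replicate 3, the lowest in Trh and in Oxt, and 638 CPM in replicate 2. Within control CT16 the sum was highest in replicate 4 (618 CPM), the highest of that group in Oxt and second in Trh. The part of those nuclei in the Oxt and Trh values was not tested.

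The promoters of Trh and Oxt also held AGGTCA. The match in Trh begins 57 bases before the start. The window of Oxt was the single one of the 9 with a pair of matches, beginning 185 and 166 bases before its start, on opposite strands.
Trh, chr6:92244601-92244900, minus strand: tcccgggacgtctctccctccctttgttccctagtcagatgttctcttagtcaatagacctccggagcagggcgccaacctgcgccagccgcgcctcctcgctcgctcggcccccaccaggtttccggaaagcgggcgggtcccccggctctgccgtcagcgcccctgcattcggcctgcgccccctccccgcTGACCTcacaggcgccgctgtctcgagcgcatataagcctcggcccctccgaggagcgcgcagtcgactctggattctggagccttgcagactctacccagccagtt
Oxt, chr2:130575919-130576218, plus strand: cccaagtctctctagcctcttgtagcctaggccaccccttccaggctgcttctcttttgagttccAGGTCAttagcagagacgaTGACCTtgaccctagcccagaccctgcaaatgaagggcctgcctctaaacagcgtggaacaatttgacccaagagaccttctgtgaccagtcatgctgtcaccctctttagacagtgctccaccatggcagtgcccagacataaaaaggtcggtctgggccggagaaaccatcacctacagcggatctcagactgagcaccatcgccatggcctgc

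The peptide genes were among the most uneven genes of the whole table within groups. The SD of log2 CPM around the group means had a median of 1.33 over the 10 genes, against 0.142 over all 16910 tested genes. Pmch ranked 3 of all genes at 2.43, Pomc 5 at 2.07, Hcrt 7 at 1.83, Npy 11 at 1.68, Crh 31 at 1.38 and Agrp 41 at 1.29. These 6 lay in the top 1% of all genes, and with Cartpt, at 0.88, 7 lay in the top 5%. Ghrh (0.66), Oxt (0.52) and Trh (0.35) lay at percentiles 92.9, 87.9 and 79.1. Among the 500 genes of nearest level, Oxt was at percentile 99.2 and Trh at percentile 98.2, so these abundant messages were also more uneven than others of their level. The median SE of a log2 fold change of DKO over control was 0.833 for the 10 genes and 0.0930 for all genes at CT16, and 1.15 and 0.114 at CT4.

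**Figure D2:**
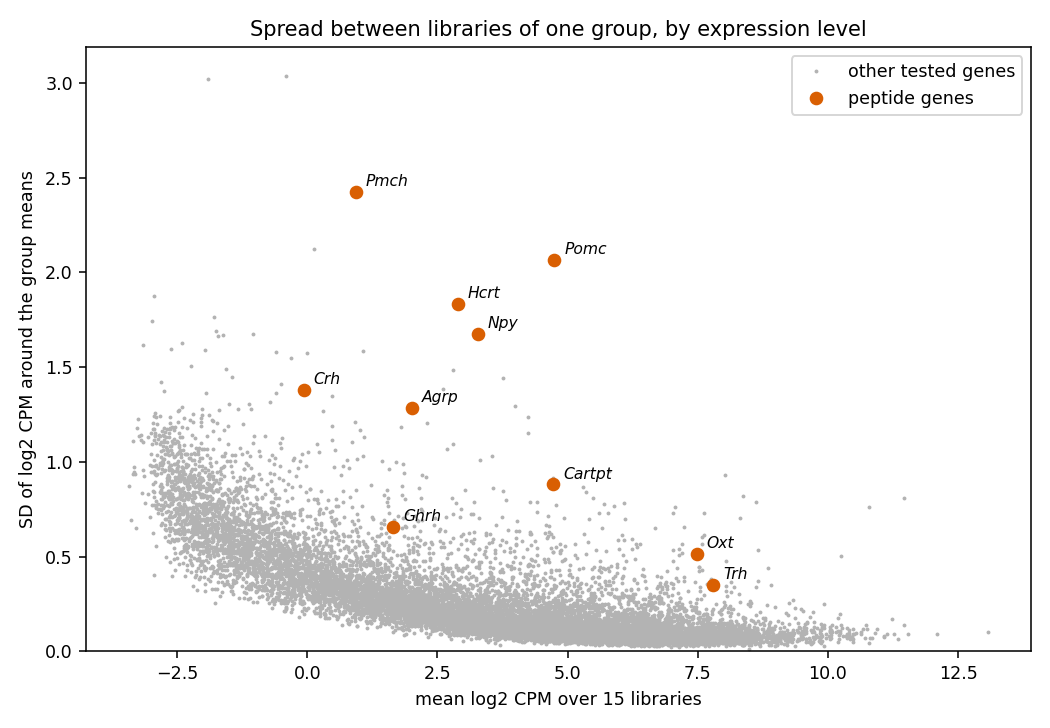
SD of log2 CPM around the 4 group means (vertical axis) against mean log2 CPM (horizontal axis) for all 16910 tested genes, with the 10 peptide genes marked. Pmch, Pomc and Hcrt stand at the top, at 2.43, 2.07 and 1.83, and Trh, at 0.35, is the lowest of the 10.

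Among the arcuate genes, the same libraries were high. The same 7 libraries held the 7 highest levels of each of Agrp, Npy, Pomc and Cartpt: DKO CT16 replicate 3, control CT16 replicates 2 and 5, all 3 DKO CT4 libraries and control CT4 replicate 1. For Ghrh, 6 of these 7 were among the highest 7. Trh mostly ran the other way, and its 5 lowest libraries, all 3 of DKO CT4 included, were among them. But 2 of the 7, control CT16 replicates 2 and 5, were among the 7 highest in Trh. Oxt and Trh together made up 46.0% of the reads of the 10 genes in DKO CT16 replicate 3, the lowest share, and 95.6% in control CT16 replicate 1, the highest.

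**Figure D3:**
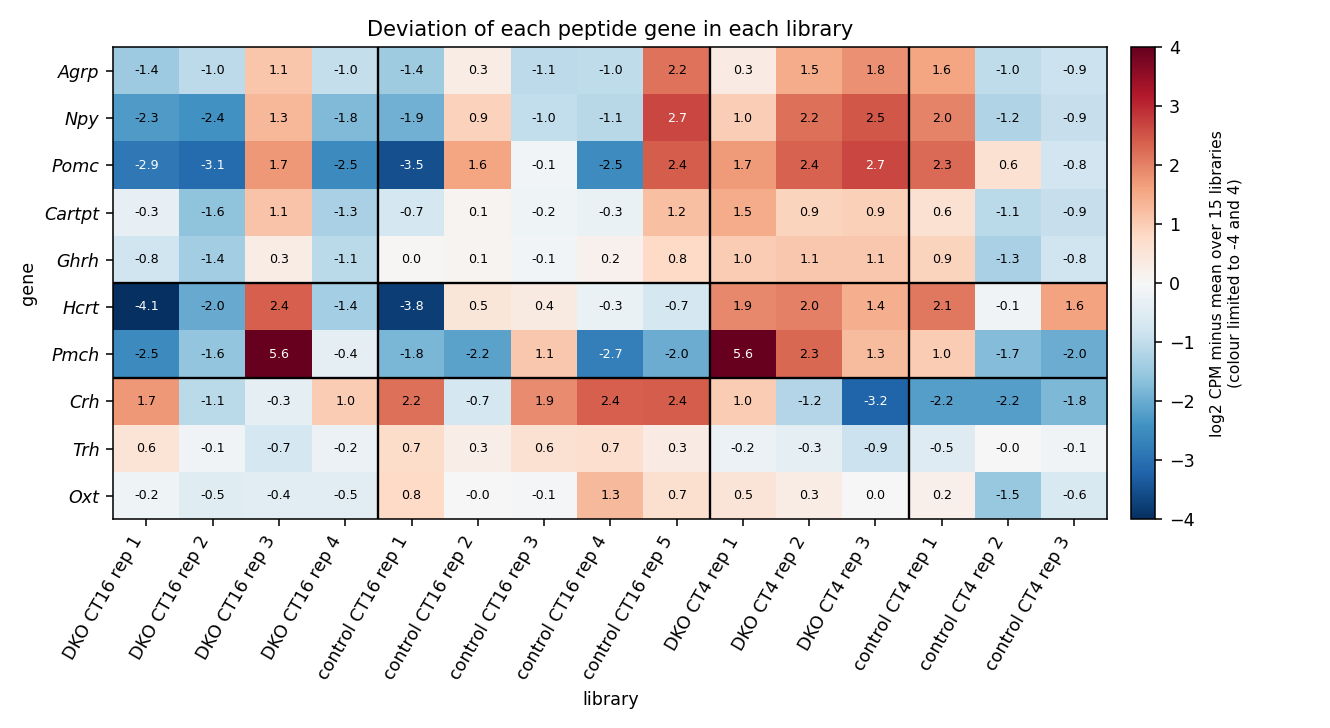
Log2 CPM of each peptide gene (rows) in each of the 15 libraries (columns, grouped as DKO CT16, control CT16, DKO CT4 and control CT4), as the difference from the mean of that gene over all libraries. Agrp, Npy, Pomc and Cartpt are high together in DKO CT16 replicate 3, control CT16 replicate 5, the DKO CT4 libraries and control CT4 replicate 1.

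The genes were also compared pair by pair by their deviations of log2 CPM from the group means, which leave out differences between groups. Correlations of these deviations are descriptions over libraries that share a scale, and no test was made of them. Agrp and Npy correlated at r = 0.98 (rho = 0.907, and r = 0.978 without the 2 libraries of most extreme Agrp deviation), and Npy and Pomc at r = 0.92 (rho = 0.839, r = 0.843 without 2). The 10 pairs within the arcuate set ran from 0.64 to 0.98, with a median of 0.83. Hcrt and Pmch correlated at 0.70, and the 10 pairs of an arcuate with a lateral gene ran from 0.33 to 0.70. The 3 paraventricular pairs were less alike, with r = 0.63 for Crh and Trh, 0.44 for Crh and Oxt and 0.07 for Trh and Oxt. Trh deviated against Npy and Agrp, both at r = -0.75, and against Hcrt at r = -0.72.

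**Figure D4:**
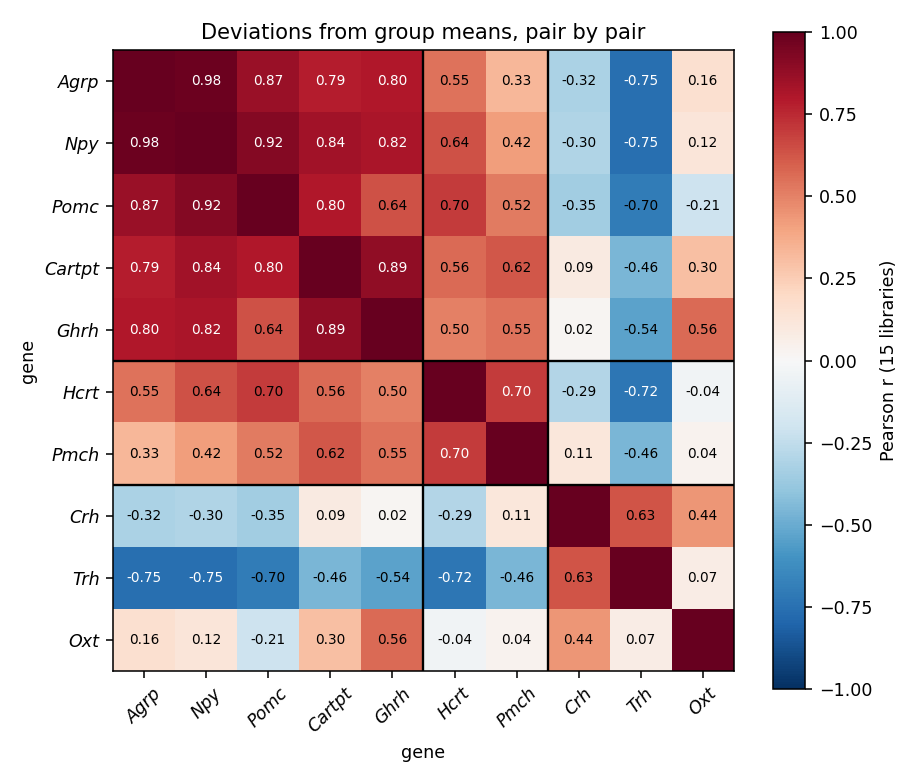
Pearson r of the deviations of log2 CPM from the group means over 15 libraries, for every pair of the 10 peptide genes (rows and columns), with black lines between the arcuate, lateral and paraventricular genes. The arcuate block is positive throughout (0.64 to 0.98), and Trh is negative against Agrp and Npy (r = -0.75).

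Over all 10 genes, 0 passed in DKO against control at CT16, where 4.66% of all tested genes passed, and 3 had an unadjusted p under 0.05 (Pmch, Trh and Oxt). The largest of these, 0.0288 by edgeR for Pmch, ranked 2559 of 16910 genes. Counts at this unadjusted level, here and for the lists below, thus lie against a large share of all genes. The median log2 fold change was -0.76, against 0.0022 for all genes, and 8 of 10 estimates were negative. Only Oxt showed no overlap between the groups, as did 6.97% of all genes. At CT4, 0 passed by edgeR, where 1.28% of all genes passed, and 1 had an unadjusted p under 0.05 (Ghrh, which ranked 2371 of 16910). The median was 1.11, with 9 of 10 estimates positive, and Cartpt, Ghrh and Pmch showed no overlap, as did 25.4% of all genes. The other tools called a few: at CT16 DESeq2 called 2 (Pmch higher and Oxt lower in DKO) and limma voom 1 (Trh, lower), and at CT4 DESeq2 called 0 and limma voom 1 (Ghrh, higher). Counts of all genes called by DESeq2, and most of those by limma voom, are given further on.

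Over time, CT16 against CT4, 1 of the 10 (Crh) passed in control, where 4.21% of all genes passed (2.13% as higher), and Crh and Trh showed no overlap, as did 15.8% of all genes. In DKO 0 passed by edgeR, where 1.8% of all genes did, and 1 had an unadjusted p under 0.05 (Ghrh, which ranked 735 of 16910). DESeq2 called 1 there (Ghrh) and limma voom 2 (Cartpt and Ghrh). Ghrh and Oxt showed no overlap in DKO, as did 14.7% of all genes. The median log2 fold change was -1.21 in DKO, with 8 of 10 estimates negative, and 0.26 in control, with 7 of 10 positive. The 2 time comparisons share no library with each other, but each shares its libraries with the genotype comparisons, so these medians are not independent of those above. The interaction passed for 0 of 10 by edgeR and for 0.0118% of all genes. For 3 of the 10 the unadjusted p lay under 0.05 (Ghrh at -1.96 ± 0.67, Crh and Oxt), and the largest, that of Crh, ranked 2077 of 16910. DESeq2 called 1 (Oxt) and limma voom 2 (Ghrh and Oxt).

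**Figure D5:**
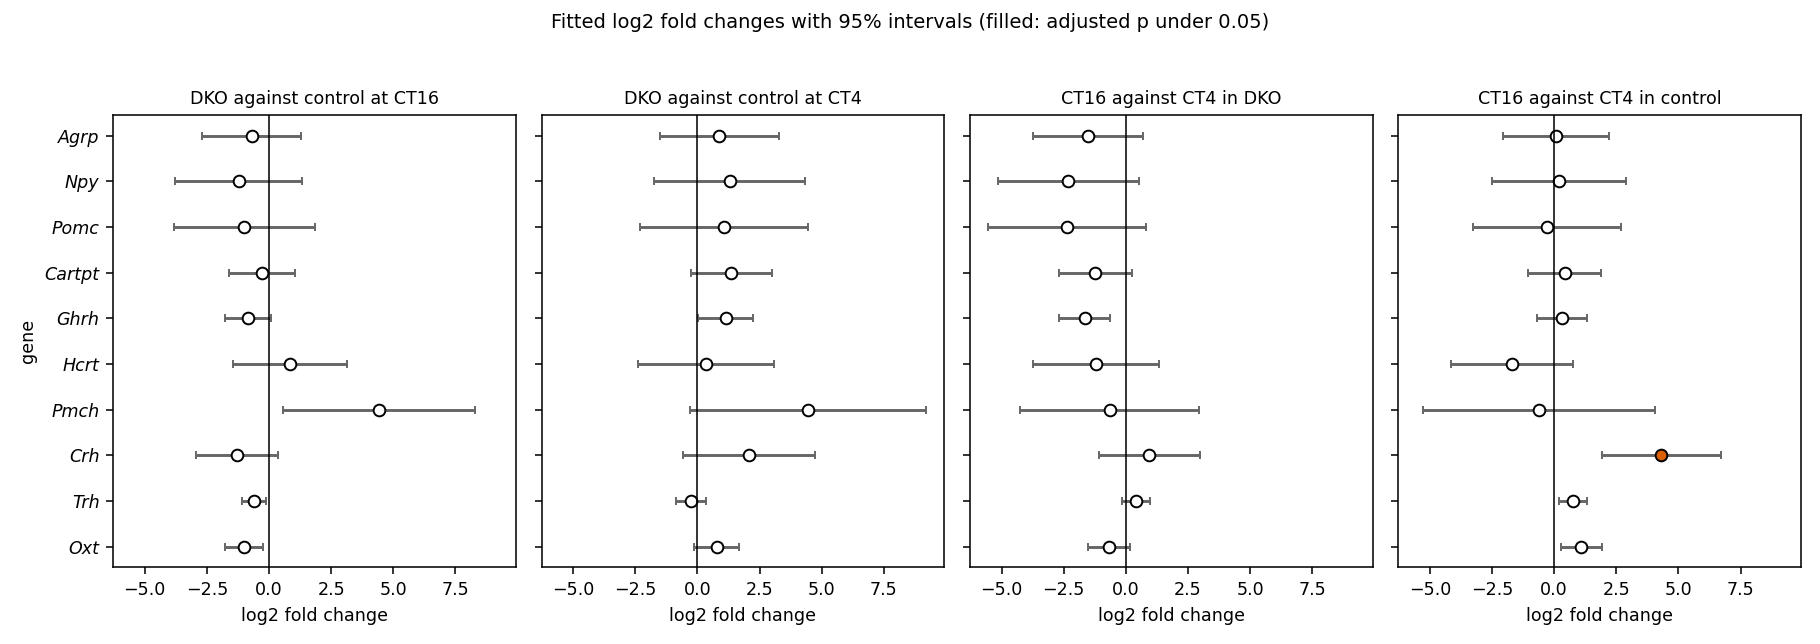
Log2 fold changes (points) with 95% intervals (lines) of the 10 peptide genes from the edgeR fit, in 1 panel per comparison. The intervals of Pmch reach from 0.55 to 8.30 at CT16, and Crh in the time comparison of control mice, at 4.31, is the single called value.

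Receptors and binding proteins of these peptides gave 1 call by edgeR. Of 16 listed, 15 were tested. By edgeR 0 passed between genotypes at CT16 or CT4 or over time in DKO, with 2 or 3 at an unadjusted p under 0.05, 1 by DESeq2 and 0 to 3 by limma voom in each. Over time in control 6 had an unadjusted p under 0.05, DESeq2 called 4 and limma voom 3. The edgeR call there was Mchr1, the receptor of melanin-concentrating hormone, at 0.77 ± 0.16 (edgeR adjusted p = 0.0146), with 10.7 to 15.3 CPM in control at CT16 and 6.49 to 8.20 CPM in control at CT4. Without control CT4 replicate 2 it was 0.67 and did not pass (edgeR adjusted p = 0.0901). Its interaction was -0.72 ± 0.23 (edgeR adjusted p = 0.177). At CT16 the median over the 15 was -0.36 for DKO over control, with 1 of 15 estimates positive, and at CT4 it was 0.18, with 10 positive. The receptors nearest the threshold between genotypes were those of neuropeptide Y, with Npy1r at -0.47 ± 0.17 at CT16 (edgeR adjusted p = 0.135) and Npy5r at -0.42 ± 0.11 at CT4 (edgeR adjusted p = 0.0770). In DKO over time it was Trhde, the enzyme that degrades thyrotropin-releasing hormone, at 0.59 ± 0.16 (edgeR adjusted p = 0.0807).

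For 13 genes of prohormone processing and secretory granules, edgeR made 0 calls in each of the 5 comparisons, with 1 to 7 at an unadjusted p under 0.05, 1 or 2 by DESeq2 and 1 to 4 by limma voom. Their estimates of smallest p were -0.16 ± 0.05 for Cpe, which trims prohormone fragments, at CT16 (edgeR adjusted p = 0.0764) and 0.19 ± 0.05 for Scg3, a granule protein, at CT4 (edgeR adjusted p = 0.0942), both DKO over control. Vgf, a granule peptide precursor, had 0.47 ± 0.11 over time in DKO (edgeR adjusted p = 0.0511) and 0.38 ± 0.11 in control (edgeR adjusted p = 0.0662). The median over the 13 was -0.05 at CT16 and 0.08 at CT4, DKO over control.

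Lists of other markers of the neighbouring nuclei gave few calls by edgeR. These lists share genes, so their sums and counts are not independent. Otp was on the arcuate and paraventricular lists, Pdyn on the paraventricular and lateral lists, and Sox14 on the arcuate and ventromedial lists. Sst was on the paraventricular and SCN peptide lists, and Gal and Tac1 were on the lateral and SCN peptide lists. The 16 other arcuate markers and the 8 other paraventricular and supraoptic markers had 0 by edgeR in each of the 5 comparisons. Per comparison, 2 to 5 of the arcuate list and 1 to 4 of the paraventricular list had an unadjusted p under 0.05, DESeq2 called 0 or 1 and 1 or 2, and limma voom 0 to 6 and 0 to 3. At CT4 all 16 arcuate estimates were positive for DKO over control, with a median of 0.59, and all 10 SCN identity markers were negative, with a median of -0.93. All of these signs rest on the same 3 DKO and 3 control libraries, so the genes are not separate results. Of these SCN markers 0 were called by edgeR at CT4, 8 had an unadjusted p under 0.05, DESeq2 called 6 and limma voom 7. At CT16 the arcuate median was -0.31 with 3 of 16 positive, and the SCN identity median 0.09 with 5 of 10 positive and 1 called, Rasl11b at 2.17 ± 0.40 (edgeR adjusted p = 0.0091), a call made with any 1 library left out. Of the 10 lateral hypothalamic markers Lhx6 was the single edgeR call in the 5 comparisons, while over time in control 4 had an unadjusted p under 0.05 and DESeq2 and limma voom called 3 each, and over time in DKO limma voom called 3. The calls among ventromedial and dorsomedial markers were Ppp1r17 at CT4 between genotypes (-0.75 ± 0.14, edgeR adjusted p = 0.0202), and Bdnf (1.11 ± 0.24, edgeR adjusted p = 0.0203) and Cckar (0.71 ± 0.19, edgeR adjusted p = 0.0439) over time in control. The call of Ppp1r17 was lost without any DKO CT4 library or without control CT4 replicate 2 or 3, that of Bdnf without control CT4 replicate 1 or 2, and that of Cckar without any of 10 of the 15 libraries, the 3 of control CT4 among them. Over time in control, 2 SCN identity markers were lower at CT16, namely Six6 at -0.99 ± 0.25 (edgeR adjusted p = 0.0467) and Rasl11b at -1.81 ± 0.42 (edgeR adjusted p = 0.0355). Both calls were lost without any 1 of 9 libraries, namely control CT16 replicates 1, 3, 4 and 5, the 3 of DKO CT4, and control CT4 replicates 2 and 3, and that of Six6 also without DKO CT16 replicate 2 or 3 or control CT4 replicate 1. The 12 SCN peptide genes gave 0 calls by edgeR in each comparison, with 1 to 5 at an unadjusted p under 0.05, 0 to 2 by DESeq2 and 0 to 2 by limma voom. Without DKO CT16 replicate 3, the edgeR calls over time in DKO, 0 with all libraries, were: 3 receptors and binding proteins, 5 processing genes, 6 arcuate, 5 paraventricular, 2 lateral and 3 SCN identity markers, and 3 SCN peptides. In that setting calls rose among all genes as well, to 1461 of 16824 tested, against 304 of 16910 with all libraries.

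For each peptide gene, the 3 other genes with the most similar library deviations were taken from 13540 candidates, over the 15 libraries and with group differences removed. For Agrp they included Plagl1 (r = 0.98) and Col23a1, a tanycyte marker (0.97). For Npy they were Col23a1 (0.98), Plagl1 (0.98) and Tbx3, a transcription factor of arcuate neurons (0.97), and for Pomc Crym (0.94), Tbx3 (0.93) and Cd36 (0.93). Col23a1, Crym and Tbx3 were all on the marker lists for tanycytes or the arcuate nucleus, which adjoin the third ventricle. For Cartpt they were Kcna5, Lrpap1 and Galnt18 (0.95 to 0.96), and for Ghrh Nucb1, the prohormone convertase gene Pcsk1, and Gpx3 (0.94 to 0.97).

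For Hcrt they were Otud1 (r = 0.91), Qrfp, a lateral hypothalamic peptide gene (0.91), and Nr5a1, a marker of the ventromedial nucleus (0.89). For Pmch they were Kcnj2, Fam102b and Cyp2s1 (0.84 to 0.86), which fell to 0.63 to 0.70 without the 2 libraries of most extreme Pmch deviation. For Trh they were Ptpru, Lin7a and Zfp57 (0.89 to 0.92), and for Oxt they included Mecom (0.95) and Efemp1 (0.85). For Crh they were Fosb, an activity-induced transcription factor (r = 0.92, rho = 0.904, r = 0.833 without 2), Ndst4 (0.90) and Trpc5 (0.89). Fosb had 36.1, 14.3, 23.4, 23.5 and 26.7 CPM in control at CT16 and 2.37, 2.30 and 2.52 CPM in control at CT4, so that control CT16 replicate 2 was the lowest library of its group for Fosb as it was for Crh.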

How the data were processed

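Total RNA of SCN punches was sequenced in 15 pooled libraries. The deposited table gives raw counts of reads in whole numbers for each gene in each library, and an exonic length for each gene, per the file headers. STAR, featureCounts, DESeq2 and the build mm10 appear in the submitters' processing notes; versions, annotation and strand setting are not stated there. Every sample column was matched to a library by its label, leaving 0 unmatched.

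Genes kept by filterByExpr on the 4 groups (16910) were fitted in edgeR 4.0.16 (R 4.3.3) with TMM factors and 1 mean per group, which left 11 residual degrees of freedom. The 5 comparisons used the robust quasi-likelihood test, and a gene was called where the Benjamini-Hochberg adjusted p lay under 0.05. An SE was obtained from the log2 fold change and its F statistic. CPM rests on TMM-scaled library sizes and log2 CPM on a prior count of 2. Library pairs within groups differed by more than sampling noise (chi-square per degree of freedom 6.62 to 127), so each library counted as 1 replicate. Depth gave the scarcest gene, Crh, 2 to 245 reads per library.

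All 10 peptide genes are named in every comparison. From the other lists, up to 4 called members of smallest p were named, or else the member of smallest p, and per peptide gene the 3 genes of highest r; some genes that meet this rule are not reported here. The members and lists were chosen with earlier results of these data known. Marker sums of myelin and of ependyma and tanycytes are given as levels, with no test of these lists. Alternatives were other scaling factors (RLE, upper quartile), DESeq2 1.42.0, voom of limma 3.58.1 weighted by sample quality, filtering on low counts left off or made stricter, a fit of only the groups compared, a replicate block, 3 libraries left out together, and each library left out in turn. Call counts of the other lists under these settings were added after seeing the data. The fit was tested on simulated data. Figures were drawn with matplotlib 3.10.9.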

Additional observations from a re-analysis of the deposited data

Results flagged for a closer look

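In groups of 4 or 5 libraries, each peptide gene was examined for a library that stood apart from the rest of its group by the gap to its nearest neighbour (Dixon's criterion at 95%). Of 20 gene and group pairs at CT16, 11 were marked, and groups of 3 at CT4 were not examined. The criterion marks about 1 in 20 for independent, normally distributed values, whereas here it was applied to unlogged CPM of genes that moved together. Most marks came from DKO CT16 replicate 3 and control CT16 replicate 5. The share of all genes marked was not computed, so 11 of 20 cannot be read against 1 in 20. DKO CT16 replicate 3 stood above its group for 5 genes: it had 8.55 CPM of Agrp (the others at most 2.02), 24.4 CPM of Npy (at most 2.79), 90.1 CPM of Pomc (at most 4.59), 39.2 CPM of Hcrt (at most 2.86) and 90.5 CPM of Pmch (at most 1.43). Control CT16 replicate 5 stood above its group for 4 genes, with 18.3 CPM of Agrp (the others at most 4.91), 61.5 CPM of Npy (at most 18.4), 60.6 CPM of Cartpt (at most 28.2) and 5.45 CPM of Ghrh (at most 3.50). Pmch in control CT16 replicate 3, at 3.99 CPM, stood above the other 4, which were at most 0.496 CPM. Oxt in DKO CT16 replicate 1, at 157 CPM, stood above the other 3, which lay between 127 and 131 CPM.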

How the results depend on the processing

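Of 1189 values of the 10 genes under the alternatives, 1148 kept their side of the threshold, 27 gained and 14 lost a call. Of the 1148, 41 took the opposite sign, all of them not called; 0 called values changed sign. The numbers of all genes called moved by more than 1.5 times in several settings, given for DKO against control at CT16 and at CT4, CT16 against CT4 in DKO and in control, and the interaction (788, 217, 304, 712 and 2 in the fit reported). DESeq2 gave 1267, 584, 874, 1317 and 360. Limma voom gave 849 at CT4, 1381 and 1856 over time in DKO and control, and 422 for the interaction. The compared groups alone gave 368, 828 and, over time in DKO, 47. No filter gave 6 for the interaction. Without 3 libraries (DKO CT16 replicates 3 and 4, control CT4 replicate 1) the counts were 419, 606, 1184 over time in DKO and 423 for the interaction.

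Peptide genes called, 0 in the fit reported except 1 over time in control, became 2 at CT16, 1 over time in DKO, 3 over time in control (Crh, Trh and Oxt) and 1 for the interaction with DESeq2. With limma voom they became 1 at CT16, 1 at CT4, 2 over time in DKO, 2 over time in control (Trh and Oxt) and 2 for the interaction. Over time in control they became 2 with the compared groups alone (Crh and Trh) and 0 with no filter. Without the 3 libraries, 2 of them the highest of their groups in Ghrh, Ghrh was the 1 gene called at CT16, at CT4, over time in DKO, over time in control and in the interaction, and Crh was not called. The cause of these differences was not tested, beyond the smaller number of libraries.

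The labels do not state that same-numbered DKO and control libraries are paired. Their deviations correlated at r from -0.18 to 0.14, and those of differently numbered libraries at r from -0.33 to 0.30. So few pairs can neither show nor exclude a pairing. With the replicate block, 503, 104, 159, 379 and 1 genes were called, and 0 peptide genes over time in control (Crh at 3.77, edgeR adjusted p = 0.0549).

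Leaving out each library in turn, all genes called ranged from 380 to 1318 at CT16, 16 to 328 at CT4, 103 to 1461 over time in DKO, 235 to 1057 over time in control and 1 to 298 for the interaction. Peptide genes called ranged from 0 to 1, 0 to 1, 0 to 3, 0 to 2 and 0 to 0. The median SD of the 10 genes ranged from 1.24 to 1.40 and the median arcuate r from 0.755 to 0.869. Limits: groups of 3 to 5 pools, and log2 fold changes of the 10 genes with a median SE of 0.833 to 1.15 between genotypes, leave all but several-fold differences undetectable for most of them.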
